A study of Homo sapiens with 16 samples.

Results

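De novo purine synthesis was followed through 10 genes in HCT116, an established cell line from a human colorectal carcinoma: *PRPS1*, *PPAT*, *GART*, *PFAS*, *PAICS*, *ADSL*, *ATIC*, *IMPDH1*, *IMPDH2* and *GMPS*. They were chosen by name as enzymes of the pathway and found by their symbols among 33937 genes in the count table, all 10 of them, and all 10 had enough reads to be tested in every comparison. RNA-seq was done on 4 groups of 4 libraries each. SCR cells carry a scrambled control hairpin and NAA40-KD cells a short hairpin RNA against *NAA40*, the N-terminal acetyltransferase of histones H4 and H2A, and both lines were grown for 96 h without doxycycline (−dox) or with 1 μg/ml of it (+dox), the drug that switches the hairpin on. The hairpins sit in stably engineered lines, 1 line per hairpin in this series, and whether a line is a single clone is not given in the sources used here, so in a comparison between lines the hairpin and the line itself cannot be told apart. In bulk RNA, fewer cells of a type and less RNA per cell cannot be told apart.

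The targeted gene was examined first, and it went against the labels. In NAA40-KD (+dox) *NAA40* stood at 30.3 ± 1.58 CPM (SD, n = 4), where CPM stands for reads scaled to a common library size after TMM normalisation, and in SCR (+dox) at 27.3 ± 1.45, 111% of the control (exact permutation test, two-sided, p = 0.0571). In NAA40-KD (−dox) it stood at 11.8 ± 1.93 CPM against 29.4 ± 3.62 in SCR (−dox), 40.2% of the control (exact permutation test, p = 0.0286, the smallest that 4 against 4 allows). The low *NAA40* level thus lay in the group labelled as untreated. Groups are called by their labels below, and every direction given for a group rests on those labels.

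Cells build purines on a sugar phosphate. PRPS1 makes the activated sugar PRPP, PPAT commits it to the pathway, and GART, PFAS, PAICS, ADSL and ATIC carry the growing ring to inosine monophosphate (IMP), with formyl groups delivered by folate. IMP is then turned towards guanine nucleotides by IMPDH1 or IMPDH2 and GMPS, or towards adenine nucleotides with a second use of ADSL. Dividing tumour cells rely on this route, and drugs that block the folate-dependent or IMPDH steps act through it.

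*PPAT* and *PAICS*, the committing enzyme and the enzyme of the carboxylase and succinocarboxamide steps, lie head to head on chromosome 4, and the letters between them are shown because the values of these 2 neighbours are set side by side below. The interval of 125 bases at chr4:56435616-56435740 (GRCh38.p14, plus strand, from the RefSeq promoter table) is the gap between the ends of the 2 genes in GENCODE 29. It is 76.0% G or C and holds 3 GC boxes (GGGCGG, searched on both strands), which are in capitals.
*PPAT*–*PAICS* interval: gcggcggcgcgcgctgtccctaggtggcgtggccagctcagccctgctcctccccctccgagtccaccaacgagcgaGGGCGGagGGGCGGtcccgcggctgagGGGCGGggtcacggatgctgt
Promoter entries were found for 8 of the 10 genes, in 12 windows of 250 bases upstream of a start. A GC box was in 9 of the 12 windows and in 42.6% of 35116 promoters. The windows are not all separate, so shared letters count more than once. A *PAICS* window and the *PPAT* window both hold the printed interval, and 2 *GART* windows are nearly the same. The E-box CACGTG, the core site for MYC and MAX, was in 2 windows, those of *PPAT* and *ATIC*, and in 6.34% of all promoters. In the *PPAT* window it lies outside the printed interval, past the start of *PAICS* in GENCODE 29. A match of letters is a description and not a binding site.

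*PPAT* (ENSG00000128059) spans chr4:56393362-56435615 on the minus strand and *PAICS* (ENSG00000128050) chr4:56435741-56464579 on the plus strand, on GRCh38. *GART* (ENSG00000159131), a single protein with 3 activities of the route, lies at chr21:33503931-33543491. *PFAS* (ENSG00000178921) lies at chr17:8247618-8270491, *ADSL* (ENSG00000239900) at chr22:40346500-40390463 and *ATIC* (ENSG00000138363), which carries out the last steps to IMP, at chr2:215311817-215349773. *PRPS1* (ENSG00000147224) lies at chrX:107628424-107651026. In the guanine branch, *IMPDH1* (ENSG00000106348) lies at chr7:128392277-128410252, *IMPDH2* (ENSG00000178035) at chr3:49024325-49029408 and *GMPS* (ENSG00000163655) on the same chromosome at chr3:155870536-155944026.

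Levels of different genes were compared per length, as RPKM over the summed exons. In SCR (−dox) cells *IMPDH2* was the most abundant of the 10 at 170.3 ± 15.3 RPKM (SD, n = 4), followed by *PAICS* at 56.9 ± 8.53 RPKM. *GART* at 34.1 ± 1.31, *ATIC* at 30.7 ± 3.92, *IMPDH1* at 24.7 ± 2.42, *PRPS1* at 21.3 ± 4.38 and *PPAT* at 21.2 ± 2.72 RPKM formed a run in which the mean ± SD ranges of neighbours overlapped. *GMPS* at 16.3 ± 1.56 and *PFAS* at 12.97 ± 0.635 RPKM came below them. *ADSL* was the exception at 0.916 ± 0.116 RPKM, with 39 to 109 reads per library in all groups. The level of *ADSL* is uncertain, since 18.9% of its exon bases are shared on the same strand with the gene AL022238.4, so reads there may belong to either. *PPAT*, *GART* and *IMPDH2* share 2.22%, 3.55% and 3.35% of their exon bases with a gene on the opposite strand, and the sources used here do not say whether reads were counted by strand. *IMPDH1* and *PAICS* each have 7 annotated pseudogenes, of which the listed ones held at most 21 and 8 reads per library.

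**Figure D1:**
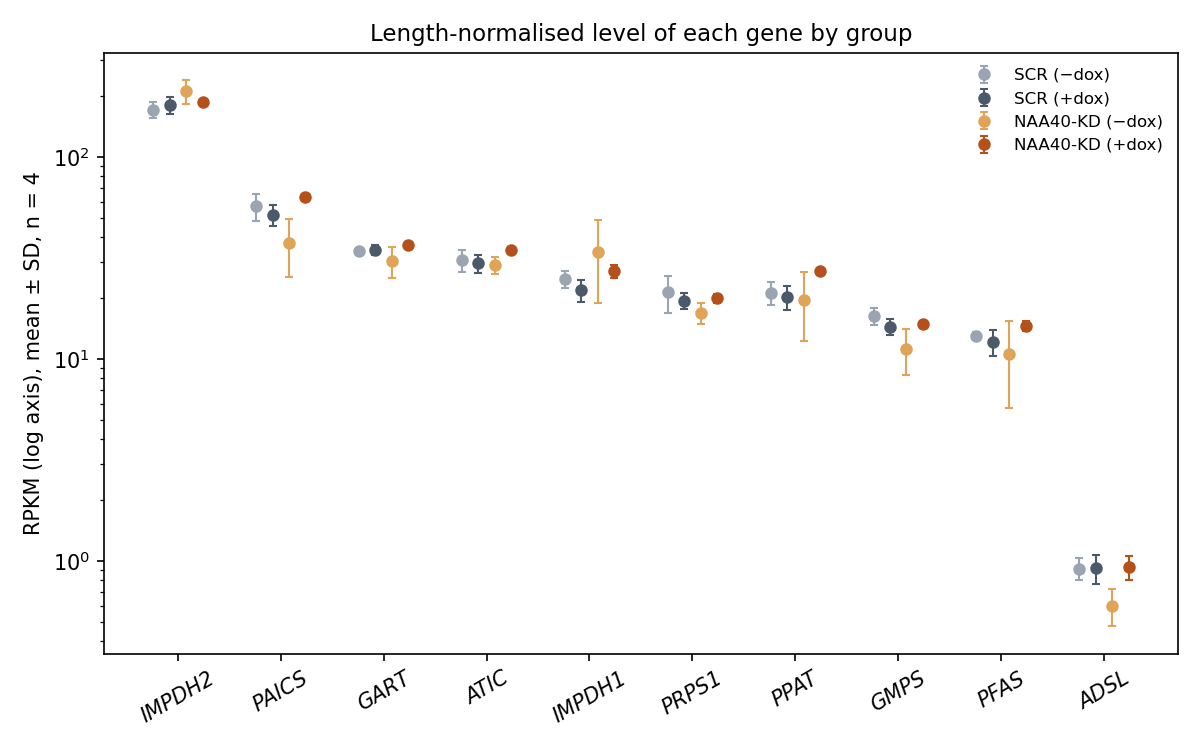
Level of each of the 10 genes in each group as RPKM on a log axis, mean ± SD of 4 libraries, with genes in the order of their SCR (−dox) level. IMPDH2 was the most abundant in every group and ADSL the least, and the group labelled NAA40-KD (−dox) had the widest bars for PPAT, PFAS, PAICS and IMPDH1.

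Total counts per library ran from 11065606 to 13855486. HCT116 markers were present, with *EPCAM* at 3124 to 5384 reads, *CDX2* at 221 to 382 and *CDH1* at 1328 to 2376, whereas *VIL1* had at most 3. Of the markers of other cell types, *PTPRC*, *COL1A2*, *PECAM1* and *CDH5* had at most 4 reads in any library and *COL1A1* 745 to 2372. Of 6 epithelial markers tested, 1 was lower in NAA40-KD with dox, where 24.5% of all genes passed. Without dox 0 passed, where 6.42% of all genes did. When the library described next was also left out, 3 were higher in NAA40-KD, where 36.5% of all genes passed. The part of these markers in the results was not tested. Replicate 4 of NAA40-KD (−dox) stood apart, with 32.9% of expressed genes more than 1 on the log2 scale from the mean of the other 3 libraries of its group, against 0.459% to 2.30% in the other 15 libraries. For the 10 purine genes this departure followed their GC content, pooled over all annotated transcripts of each gene. *PPAT*, at 38.1% GC, was 1.41 below the mean of the other 3 on the log2 scale (−1.41), *PAICS* at 43.4% GC was at −1.12 and *GMPS* at 41.6% GC at −0.88. At the other end *IMPDH1* at 61.5% GC was at 1.09 and *PFAS* at 59.0% GC at 1.13. Pearson's r between departure and GC content was 0.982 over the 10 genes and 0.906 over 14366 expressed genes, a description of 1 library in which the genes share depth and preparation. Results of comparisons that include NAA40-KD (−dox) are given with and without this library. The fit over all 16 libraries also includes it, and for the comparison with dox that fit is given only with it.

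**Figure D2:**
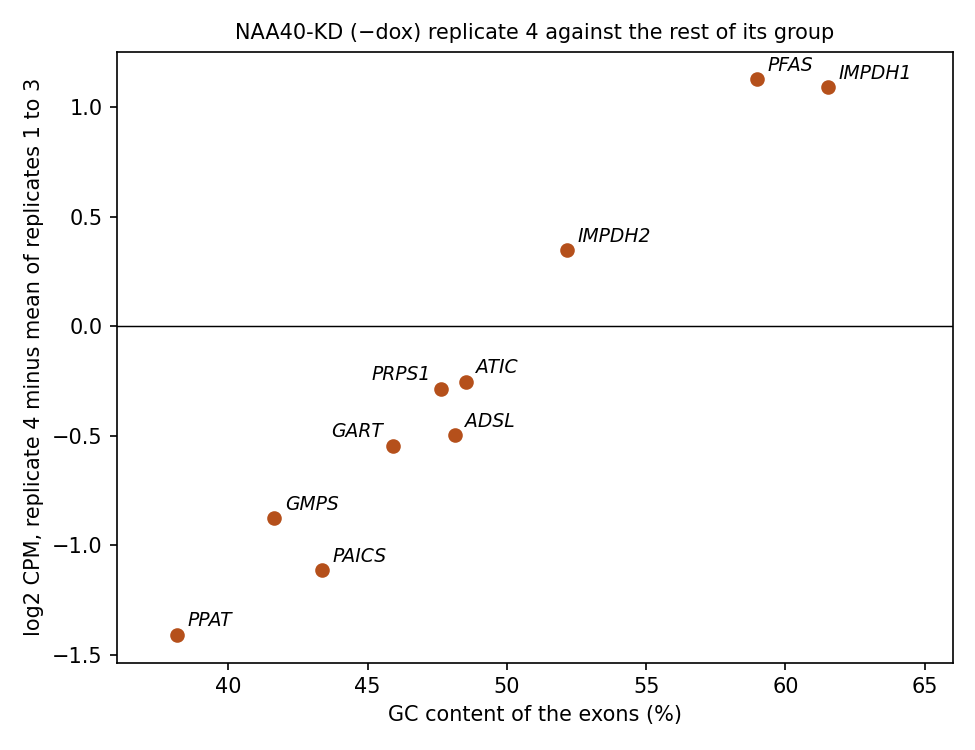
Departure of NAA40-KD (−dox) replicate 4 from the mean of replicates 1 to 3 of its group (log2 CPM, vertical axis) against GC content in percent (horizontal axis), 1 point per gene. GC content is pooled over all annotated transcripts of a gene, so exons shared by several transcripts count more than once. PPAT is lowest at 38.1% GC with −1.41, and PFAS and IMPDH1 are highest at 1.13 and 1.09.

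With dox, the question was whether the NAA40-KD line differed from SCR. *PPAT*, *PAICS* and *IMPDH1* were higher in the libraries labelled NAA40-KD (+dox), by 35.2%, 22.9% and 24.0%, and no member was lower. All differences of the 10 genes were positive, with a median log2 fold change of 0.15 against −0.0042 over all genes tested. The share of all genes with a positive difference was not computed. Those of *PRPS1*, *ADSL*, *IMPDH2* and *GMPS* were small and turned negative in some fits that left out 1 library. The 3 of 10 that passed, at an adjusted p under 0.05 in edgeR's quasi-likelihood test, stand against 24.5% of 13869 genes that did, and the 3 higher against 10.9% that were higher. None passed with an absolute log2 fold change above 1, which 2.15% of genes did.

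At the entry, *PRPS1* had 51.1, 49.9, 56.4 and 51.6 CPM in NAA40-KD (+dox) and 50.1, 45.4, 56.2 and 51.5 in SCR (+dox). These ranges overlapped, and the log2 fold change was 0.04 (95% interval −0.16 to 0.24). *PPAT* had 144, 152, 150.04 and 147 CPM in NAA40-KD (+dox) against 125, 112, 112 and 88.9 in SCR (+dox). Every knockdown library was above every control library, and the difference was 0.44 on the log2 scale (SE 0.0965, edgeR adjusted p = 0.00342). It stayed past the threshold when any 1 of the 8 libraries was left out, and was lost in the fit over all 16 libraries (edgeR adjusted p = 0.288). That fit also takes in NAA40-KD (−dox) replicate 4, which is not part of this comparison.

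*PAICS* had 457.7, 477, 495 and 475 CPM in NAA40-KD (+dox) against 431, 354, 421 and 342 in SCR (+dox). The groups again did not overlap, with a log2 fold change of 0.30 (SE 0.0904, edgeR adjusted p = 0.0226). This call held in 4 of 8 fits that left out 1 library and was lost without replicate 2 of SCR or replicate 2, 3 or 4 of NAA40-KD (edgeR adjusted p up to 0.0775), and also in the fit over all 16 libraries (edgeR adjusted p = 0.417). *ATIC* was at 131 to 139.6 CPM in NAA40-KD (+dox) and at 99.6 to 129 in SCR (+dox), without overlap, but its log2 fold change of 0.21 did not pass (95% interval 0.03 to 0.40, edgeR adjusted p = 0.0865). *PFAS*, which makes formylglycinamidine ribonucleotide, was at 86.7 to 100.1 CPM against 69.3 to 93.7, with a log2 fold change of 0.26 that did not pass either (95% interval 0.05 to 0.47, edgeR adjusted p = 0.0701). Both passed when counts were corrected for GC content (log2 fold change 0.22 for *ATIC* and 0.32 for *PFAS*, edgeR adjusted p = 0.0386 and 0.00425). *GART* was at 0.08 (−0.09 to 0.25) and *ADSL* at 0.02 (−0.31 to 0.35), where the low counts of *ADSL* leave a wide interval. In all, 4 of 10 genes had groups that did not overlap, against 27% of all genes.

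In the guanine branch 1 of the 2 isozymes of the IMP dehydrogenase step passed. *IMPDH1* had 92.8, 92.8, 106 and 105 CPM in NAA40-KD (+dox) against 73.3, 69.6, 85.8 and 91.2 in SCR (+dox). All 4 knockdown libraries lay above the controls, by 0.31 on the log2 scale (SE 0.0990, edgeR adjusted p = 0.0287). The call was lost without replicate 1 or 2 of SCR or replicate 3 or 4 of NAA40-KD (edgeR adjusted p up to 0.0916), and in the fit over all 16 libraries (edgeR adjusted p = 0.434). *IMPDH2*, the abundant isozyme, was at 512 to 523 CPM against 446 to 561, and its log2 fold change was 0.04 (−0.14 to 0.22). *GMPS*, which aminates XMP to GMP, was at 129 to 134 against 115 to 142 CPM with a log2 fold change of 0.05 (−0.13 to 0.23). The difference between *IMPDH1* and *IMPDH2* was not itself tested. Within NAA40-KD (+dox) the coefficient of variation of the 10 genes ran from 1.08% for *IMPDH2* to 13.3% for *ADSL*.

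**Figure D3:**
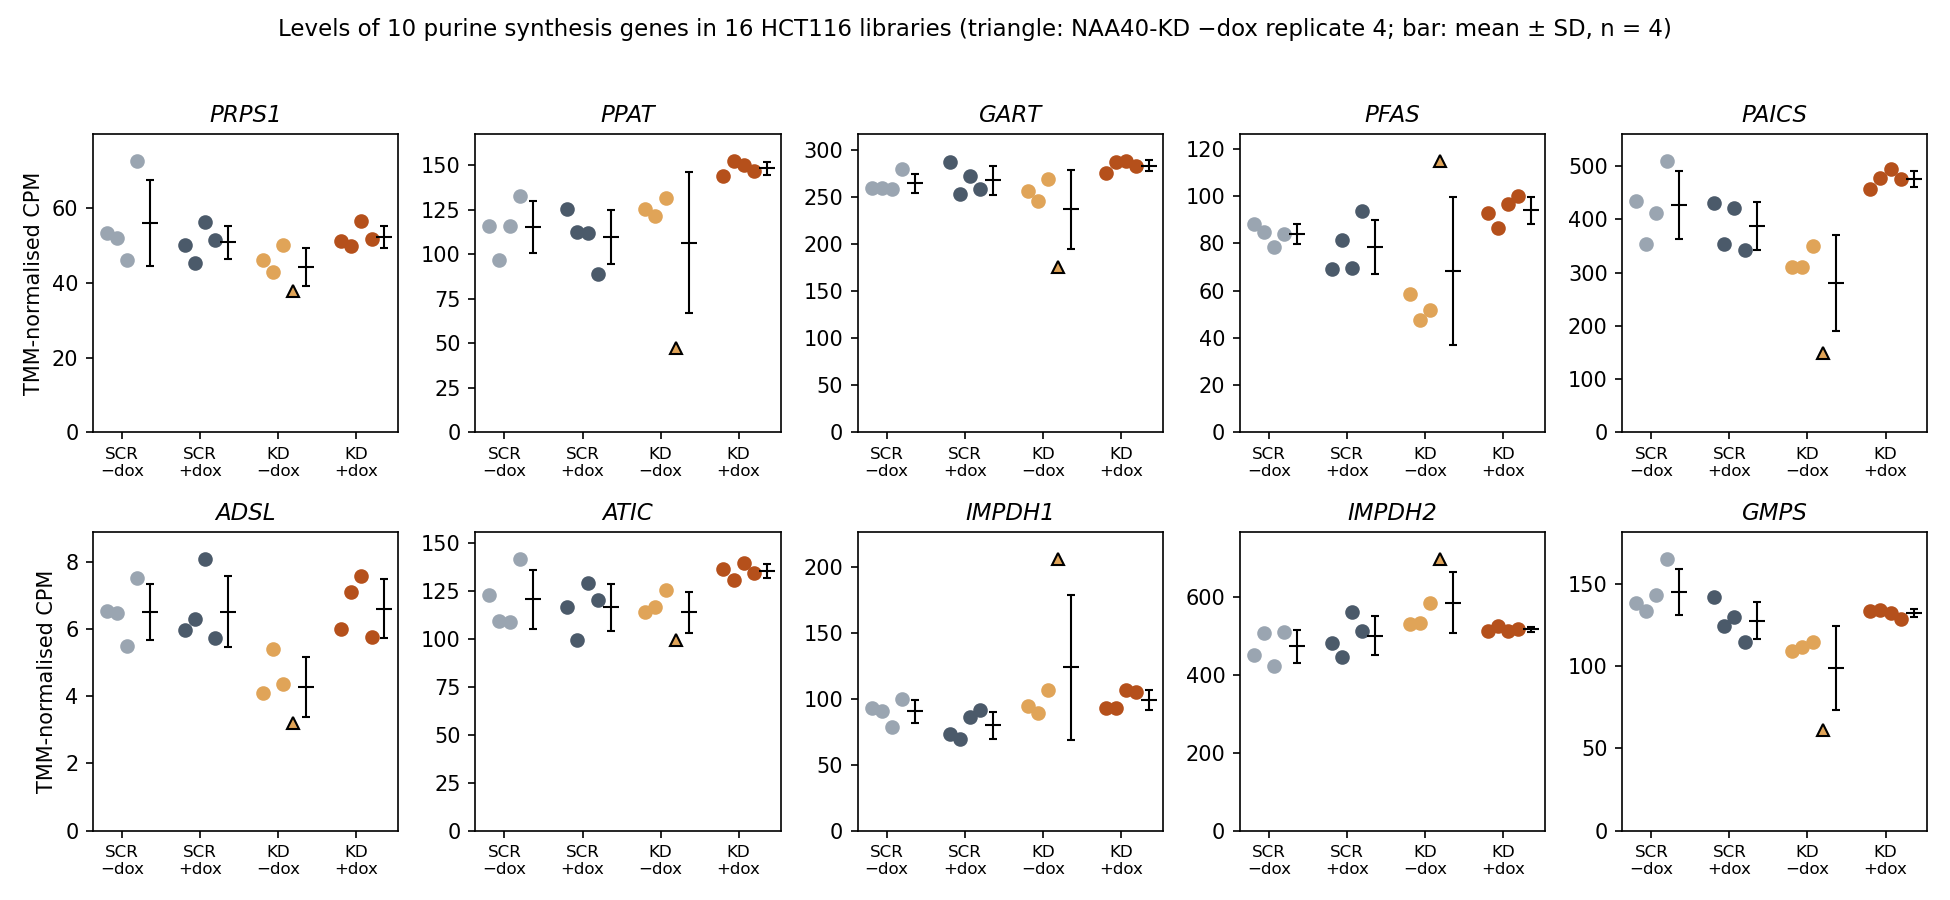
TMM-normalised CPM of each gene in the 16 libraries, 1 panel per gene with its own axis from 0, with the mean ± SD of each group beside its points. The triangle is NAA40-KD (−dox) replicate 4, which lies lowest for PPAT (47.4 CPM), PAICS (149 CPM) and GMPS (60.9 CPM) and highest for PFAS (115 CPM) and IMPDH1 (206 CPM).

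Without dox, where the libraries labelled NAA40-KD held less *NAA40* than SCR, 0 of the 10 genes passed in edgeR with all 8 libraries, against 6.42% of 13903 genes. At an unadjusted p under 0.05 there were 3 (*PAICS*, *ADSL* and *GMPS*), a threshold for which no share of all genes was computed. DESeq2 and limma-voom also called 0, with no share of all genes computed for them. The groups of 4 genes did not overlap, *PAICS*, *ADSL*, *IMPDH2* and *GMPS*, against 21.8% of all genes. The intervals were wide, as replicate 4 spread the group. Without that library, *PFAS*, *PAICS*, *ADSL* and *GMPS* were lower in NAA40-KD, with log2 fold changes of −0.68, −0.40, −0.50 and −0.38, and no member passed as higher. The groups of 5 genes did not overlap there, against 41.4% of all genes. These 4 of 10 stand against 36.5% of 13751 genes that passed in that fit, and against 19.4% that were lower.

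*PFAS* turned most on the library. It had 58.7, 47.5, 52.0 and 115 CPM in NAA40-KD (−dox) against 88.3, 85.0, 78.4 and 84.1 in SCR (−dox). Replicates 1 to 3 lay below every control and replicate 4 above every control. The log2 fold change fell from −0.28 with all libraries (SE 0.275, edgeR adjusted p = 0.573) to −0.68 without replicate 4 (SE 0.0927, edgeR adjusted p = 5.61e-05). With all 8 libraries and a correction for GC content it was −0.54 (edgeR adjusted p = 0.000515).

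*PAICS* had 311, 311, 350.3 and 149 CPM in NAA40-KD (−dox) and 435, 354, 411 and 509 in SCR (−dox). All knockdown libraries lay below all controls. Its log2 fold change was −0.61 with all libraries (SE 0.246, edgeR adjusted p = 0.173) and −0.40 without replicate 4 (SE 0.110, edgeR adjusted p = 0.00924). *ADSL* had 4.10, 5.39, 4.37 and 3.20 CPM against 6.54, 6.49, 5.50 and 7.52, again without overlap. On 39 to 99 reads per library, its log2 fold change was −0.60 with all libraries (edgeR adjusted p = 0.106) and −0.50 without replicate 4 (edgeR adjusted p = 0.0376). *PPAT*, across the shared interval from *PAICS*, had 126, 121, 132 and 47.4 CPM against 116, 96.5, 116 and 133. Its first 3 libraries lay within the range of the controls, and the log2 fold change was −0.11 with all libraries (95% interval −0.75 to 0.52) and 0.13 without replicate 4 (−0.09 to 0.34). With all libraries *GART* was at −0.15 (−0.50 to 0.19), *ATIC* at −0.08 (−0.41 to 0.26) and *PRPS1* at −0.34 (−0.73 to 0.06). Without replicate 4 they were at −0.05 (−0.21 to 0.12), −0.03 (−0.24 to 0.18) and −0.28 (−0.56 to 0.00071), and none passed.

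Beyond IMP, *GMPS* had 109, 112, 115 and 60.9 CPM in NAA40-KD (−dox) and 139, 133, 144 and 165 in SCR (−dox). Every knockdown library was lower, with log2 fold changes of −0.55 with all libraries (edgeR adjusted p = 0.146) and −0.38 without replicate 4 (SE 0.0899, edgeR adjusted p = 0.00387). *IMPDH2* had 529, 532, 583 and 695 CPM against 451, 505, 423 and 510.1. All 4 libraries were above the controls, but neither the log2 fold change of 0.32 with all libraries (95% interval −0.010 to 0.64, edgeR adjusted p = 0.227) nor that of 0.21 without replicate 4 (0.02 to 0.40, edgeR adjusted p = 0.0838) passed. It passed when GC content was corrected for, with all libraries (0.26, edgeR adjusted p = 0.0202) or without replicate 4 (0.23, edgeR adjusted p = 0.0254). *IMPDH1* had 94.8, 88.9, 106 and 206 CPM against 93.3, 90.8, 78.5 and 99.6, and the log2 fold change was 0.47 with all libraries (−0.14 to 1.08) and 0.09 without replicate 4 (−0.11 to 0.29). The 4 genes that were lower without replicate 4 had a GC content of 41.6% (*GMPS*) to 59.0% (*PFAS*). That of the other genes ran from 38.1% (*PPAT*) to 61.5% (*IMPDH1*). The part of GC content in these differences was not tested.

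**Figure D4:**
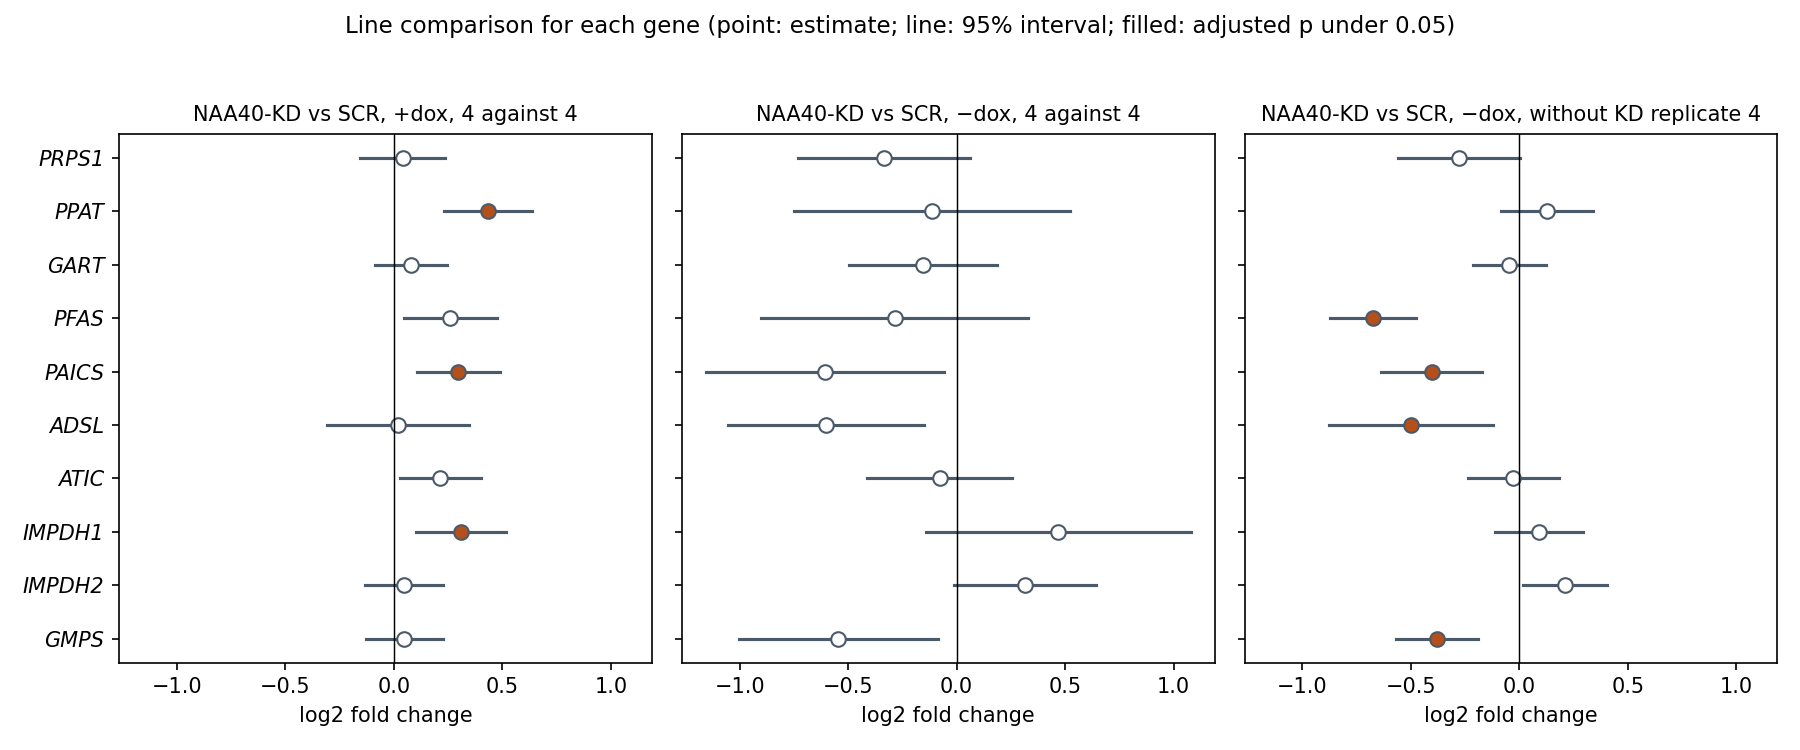
Log2 fold change of each gene, NAA40-KD against SCR, with its 95% interval, in the (+dox) libraries, in the (−dox) libraries, and in the (−dox) libraries without NAA40-KD replicate 4. Filled points passed at an adjusted p under 0.05: PPAT, PAICS and IMPDH1 with dox, none without dox, and PFAS, PAICS, ADSL and GMPS once replicate 4 was left out.

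Dox by itself was examined in SCR cells. No purine gene differed between SCR (+dox) and SCR (−dox) in edgeR, 0 of 10 at an adjusted and 0 at an unadjusted p under 0.05. The background at an adjusted p was 0% of 13882 genes. No share was computed at an unadjusted p or for DESeq2 and limma-voom, which also called 0 of the 10. The largest estimates were those of *GMPS*, −0.19 (95% interval −0.42 to 0.04), and *IMPDH1*, −0.18 (−0.42 to 0.06). All 10 pairs of groups overlapped, where 1.58% of genes had groups that did not.

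Within the NAA40-KD line, 0 of 10 genes passed in edgeR between (+dox) and (−dox) with all libraries, and 2 had an unadjusted p under 0.05, *PAICS* at 0.76 (SE 0.233, adjusted p = 0.0696) and *ADSL* at 0.63 (SE 0.191, adjusted p = 0.0689). DESeq2 called 2 and limma-voom 0, and 10.2% of 13844 genes passed in edgeR. The groups of 7 genes did not overlap, against 29.7% of all genes. Without replicate 4 of NAA40-KD (−dox), 8 of 10 were higher in NAA40-KD (+dox), all but *IMPDH1* and *IMPDH2*, against 52.4% of 13700 genes that passed and 25.8% that were higher. *PFAS* differed most, by 0.83 (SE 0.0706, edgeR adjusted p = 9.80e-10), then *PAICS* by 0.55 (SE 0.0513, edgeR adjusted p = 3.62e-09) and *ADSL* by 0.52 (SE 0.164, edgeR adjusted p = 0.0107). *GMPS*, *PPAT*, *ATIC*, *PRPS1* and *GART* followed with log2 fold changes of 0.24, 0.23, 0.18, 0.17 and 0.14. With all libraries *PFAS* was at 0.46 and these 5 at 0.41, 0.47, 0.25, 0.24 and 0.26, with wider intervals, and none passed. *IMPDH1* was at −0.33 with all libraries and 0.04 without replicate 4, and *IMPDH2* at −0.18 and −0.09. With all 8 libraries and the GC correction the count was also 8. When 1 fit over 15 libraries without replicate 4 was used instead, 4 of the 10 passed. No share of all genes was computed for the unadjusted p, DESeq2, limma-voom, the GC correction or this fit. Their counts are therefore not read as a result about the purine genes. This comparison shares its libraries with those above and is not independent of them.

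Whether the line difference changed with dox was tested as an interaction over all 16 libraries. *PAICS* passed, at 0.91 on the log2 scale (SE 0.274, edgeR adjusted p = 0.0471), 1 of 10 against 9.22% of 14392 genes. This rested on the choice of libraries, since the call held in 5 of the 16 fits that left out 1 library, those without replicate 2 of SCR (−dox) or any 1 library of NAA40-KD (−dox), and reached an edgeR adjusted p of 0.103 in the others. Without replicate 4 of NAA40-KD (−dox), *PFAS* (0.93, SE 0.141, edgeR adjusted p = 5.22e-05), *PAICS* (0.69, SE 0.146, edgeR adjusted p = 0.00136) and *GMPS* (0.42, SE 0.120, edgeR adjusted p = 0.0130) passed, 3 of 10 against 24.2% of 14302 genes. *IMPDH2* was the only gene with a negative estimate in that fit, −0.17 (95% interval −0.43 to 0.08).

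The genes did not keep fixed proportions to each other. The ratio of *PAICS* to *PPAT* CPM was 3.15 to 3.85 in the 8 SCR libraries and 3.13 to 3.30 in NAA40-KD (+dox), but 2.48 to 2.66 in replicates 1 to 3 of NAA40-KD (−dox) and 3.15 in replicate 4. The ratio of *IMPDH2* to *IMPDH1* was 4.81 to 6.55 in 15 libraries and 3.38 in replicate 4. Around their group means and without replicate 4, *PPAT*, *PAICS* and *GMPS* deviated together (Pearson's r from 0.865 to 0.898 over 15 libraries), and *PRPS1* went with *ATIC* (r = 0.893), whereas *PFAS* went against *GMPS* (r = −0.58). These are descriptions, since libraries share depth and GC effects across genes.

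Around the 10 genes, 1 of 7 purine salvage genes passed with dox, where 24.5% of all genes did. *APRT*, which recycles adenine, was lower in NAA40-KD (+dox) (log2 fold change −0.92, SE 0.109, edgeR adjusted p = 9.10e-06), and the call was lost in the fit over all 16 libraries (edgeR adjusted p = 0.0618). Without dox 0 of 7 passed with all libraries, against 6.42% of all genes, with *APRT* at 0.04 and *MTAP*, which releases adenine from methylthioadenosine, at −0.71. Without replicate 4 these 2 were lower, at −0.55 and −0.47 (edgeR adjusted p = 0.00128 and 0.00136), where 36.5% of all genes passed. Of the other enzymes of PRPP supply and the branch to nucleotides, *PRPS2*, a second PRPP synthetase, was higher with dox (0.29, edgeR adjusted p = 0.0298) and *GMPR2*, which returns GMP to IMP, was lower (−0.41, edgeR adjusted p = 0.00393). These 2 of 7 stand against 24.5% of all genes that passed. Without dox 0 of 7 passed with all libraries or without replicate 4, against 6.42% and 36.5% of all genes. The call of *PRPS2* was lost without replicate 2 or 4 of SCR, without any 1 library of NAA40-KD (+dox), with no filter on low counts and in the fit over 16 libraries.

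Of 13 enzymes tested that convert or break down purines, 3 were higher and 1 lower with dox, against 24.5% of all genes that passed, among them *NME2* (0.79), *NT5C2* (0.45) and *NT5C* (−0.48), a kinase and 2 nucleotidases (edgeR adjusted p = 0.00282, 0.00649 and 0.00973). *NME2* had 25 to 103 reads per library and lies beside the closely related *NME1*, so its level is uncertain. All 3 calls were lost in the fit over all 16 libraries (edgeR adjusted p = 0.106, 0.227 and 0.306). Without dox 0 of 13 passed with all libraries, against 6.42% of all genes. Without replicate 4, 5 were higher and 4 lower, against 36.5% of all genes that passed in that fit. *GDA*, the guanine deaminase, was higher there by 1.13 (SE 0.0903, edgeR adjusted p = 4.00e-07) and *AMPD2*, which returns AMP to IMP, by 0.54 (SE 0.0847, edgeR adjusted p = 0.000183). With all libraries both were at 0.89 and did not pass (edgeR adjusted p = 0.0848 and 0.0710).

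Of 7 tested genes of formyl-folate metabolism, 3 were lower and 1 higher in NAA40-KD with dox, against 24.5% of all genes that passed. The lower ones were *MTHFD2* (−1.09, SE 0.0847, edgeR adjusted p = 8.07e-08), a mitochondrial folate dehydrogenase, *ALDH1L2* (−0.95, edgeR adjusted p = 0.000135), which removes formyl groups, and *SHMT2* (−0.37, edgeR adjusted p = 0.00489), the mitochondrial serine hydroxymethyltransferase, whose call was lost in the fit over all 16 libraries (edgeR adjusted p = 0.211). Without dox 0 of 7 passed with all libraries, against 6.42% of all genes, with *SHMT1* at −0.53 and *MTHFD2* at −0.60 (edgeR adjusted p = 0.103 and 0.0584). Without replicate 4, 5 were lower, among them *SHMT1* at −0.66 and *MTHFD2* at −0.51 (edgeR adjusted p = 0.000299 and 0.00159), where 36.5% of all genes passed. Of the 3 regulators, *ATF4* was lower with dox (−0.73, SE 0.105, edgeR adjusted p = 7.68e-05), where 24.5% of all genes passed. *MYC* was at 0.14 (95% interval −0.05 to 0.33) and did not pass. Without dox, *MYC*, *MAX* and *ATF4* were at −0.25, −0.39 and −0.55 with all libraries, and none passed (edgeR adjusted p = 0.487, 0.152 and 0.0851). Without replicate 4 all 3 were lower, at −0.50, −0.31 and −0.70 (edgeR adjusted p = 0.000447, 0.0254 and 6.39e-05). In that fit 36.5% of all genes passed and 19.4% passed as lower.

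Of 7 genes of S phase, 3 were lower in NAA40-KD without dox with all libraries, against 6.42% of all genes that passed, among them *MCM4* (−1.41, edgeR adjusted p = 0.00373) and *MCM3* (−1.42, edgeR adjusted p = 0.00412), subunits of the replicative helicase, and without replicate 4 all 7 were, against 36.5% of all genes that passed, with a median log2 fold change of −1.11 against −0.0059 over all genes tested. With dox, 2 of 7 were higher and 1 lower, against 24.5% of all genes that passed, *MCM4* (0.32), *MCM5* (0.35) and *MCM6* (−0.93) (edgeR adjusted p = 0.0203, 0.0235 and 1.79e-06). The calls of *MCM4* and *MCM5* with dox held in 5 and 4 of 8 fits that left out 1 library, and that of *MCM6* without dox in 1 of 8. In the fit over all 16 libraries *MCM4* and *MCM5* with dox did not pass (edgeR adjusted p = 0.186 and 0.415), and *MCM6* without dox did not with the replicate number as a block (edgeR adjusted p = 0.152). The part of the growth state of the cells in the purine gene levels was not tested.

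The genes outside these lists whose profile was most like the mean of the 10 were *POLE3*, *MCMBP*, *ISOC1*, *BRI3BP* and *BZW2*, with Pearson's r from 0.951 to 0.965 over 16 libraries and from 0.919 to 0.946 over 15 libraries without replicate 4, out of 10663 genes compared. The libraries share depth and preparation, and the values describe the likeness of profiles only.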

How the data were processed

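HCT116 SCR and NAA40-KD cells were sequenced in 16 libraries, 4 per group. The authors aligned reads with STAR, and the deposited values are whole-number counts per gene from featureCounts, not normalised. The methods name the mouse build mm10 and the submitters' notes hg38 and GRCm38, but all 33937 identifiers are human Ensembl identifiers, and 33811 were found in GENCODE 29 (GRCh38), used for coordinates, lengths and GC content. For RNA and libraries the methods name RNeasy and a stranded kit, the labels Direct-zol and a standard protocol. Groups come from the labels. Total counts per library limit precision, and intervals cover 95%. The samples are described as 4 independent RNA preparations, so p-values measure the spread between these.

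From the counts, edgeR 4.0.16 in R 4.3.3 gave robust quasi-likelihood tests (two-sided, TMM, Benjamini-Hochberg over all genes tested) on genes with CPM above 1 in at least 4 libraries. Each comparison was fitted on its own 8 libraries, the interaction on 16. Standard errors are the log2 fold change over the square root of F. A gene passed at an adjusted p under 0.05, or also with an absolute log2 fold change above 1. Levels are TMM-normalised CPM, and RPKM uses the length of all exons of a gene. GC content pools the sequences of all annotated transcripts of a gene. *NAA40* was compared by exact permutation. Scripts were tested on simulated data.

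Alternatives were DESeq2 1.42.0, limma-voom (limma 3.58.1), other scalings and filters, a fit over all 16 libraries, a replicate block, a GC offset (lowess, span 0.3), each library left out and thresholds of 0.01 and 0.1. Chosen after seeing the data were the GC offset and the 16-library fit without NAA40-KD (−dox) replicate 4, medians, and list counts without it. Genes named are the 10 members, *NAA40*, up to 3 of each context list with the lowest adjusted p in either line comparison, *MYC*, *ATF4* and the 5 genes most like the members' mean (at least 5 CPM in all groups). The members and lists were chosen with earlier results of these data known. Promoter letters are from RefSeq (GRCh38.p14), with 250 bases upstream. Same-numbered libraries did not deviate together in every pair, so numbers were not used as pairs.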

Additional observations from a re-analysis of the deposited data

Results flagged for a closer look

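In 5 of 44 groups of 4 libraries (10 purine genes and *NAA40*, 4 groups each), 1 library lay far from the other 3 by Dixon's test, which chance alone does in about 1 group in 20. The genes share the same libraries, so the 44 groups are not independent and the 5 cannot be judged against that rate. In 4 of the 5 it was replicate 4 of NAA40-KD (−dox), with *PPAT* at 47.4 CPM and *GMPS* at 60.9 CPM below the rest and *PFAS* at 115 CPM and *IMPDH1* at 206 CPM above it. The direction ran with GC content, as given in the report. The other was *GART* at 279 CPM in SCR (−dox) replicate 4, above 259 to 260 CPM in the other 3. The effect of the line differed between the dox labels for *PAICS*, by 0.91 on the log2 scale (edgeR adjusted p = 0.0471), and for *NAA40*, by 1.46 (edgeR adjusted p = 0.000220). The *PAICS* difference was 0.69 without replicate 4 of NAA40-KD (−dox) (edgeR adjusted p = 0.00136).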

How the results depend on the processing

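The share of all genes passing was computed only for the main edgeR fits and for these without NAA40-KD (−dox) replicate 4. Counts under other settings in this section have no such background and are not read as results about the purine genes. With dox, the 3 purine genes passing NAA40-KD against SCR became 0 in the fit over all 16 libraries, 5 with the GC offset, 1 at an adjusted p under 0.01 and 5 at 0.1, and 1 to 4 when 1 library was left out (1 without SCR replicate 2 or NAA40-KD replicate 3 or 4). Without dox the count of 0 became 3 in the 16-library fit, 5 with the GC offset, 5 with the GC offset and 4 with the fit over all groups when NAA40-KD (−dox) replicate 4 was left out as well, and ran from 0 to 4 over the libraries left out. Between NAA40-KD (+dox) and (−dox), 0 became 2 with DESeq2, 2 in the 16-library fit, 2 at an adjusted p under 0.1, 8 with the GC offset, with or without replicate 4, and 4 in the fit over all groups without it, with 0 to 8 over the libraries left out. The interaction count of 1 became 0 with library size only, 0 at an adjusted p under 0.01 and 4 with the GC offset, with or without replicate 4, with 0 to 3 over the libraries left out; 1 passed with an absolute log2 fold change above 1 without NAA40-KD (−dox) replicate 3, and 0 otherwise. *NAA40* in NAA40-KD (+dox) was 109% to 113% of SCR over the libraries left out, and the exact permutation p was 0.0286 without NAA40-KD replicate 3.

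Of the purine genes, those that changed sign under an alternative had not passed in that comparison. The log2 fold change became −0.0036 for *GMPS* with dox under the GC offset. For *PPAT* without dox it became 0.031 under the GC offset, 0.036 with the offset and without replicate 4, and 0.14 in the fit over all groups without it. For *ADSL* between SCR (+dox) and (−dox) it became 0.017 with upper-quartile scaling, 0.0058 with no filter, 0.0016 in the 16-library fit, 0.0077 under the GC offset and 0.0027 in the fit over all groups without replicate 4. For *IMPDH1* it became 0.034 in that fit between NAA40-KD (+dox) and (−dox), and 0.19 in the interaction under the GC offset, with or without replicate 4. Over the libraries left out, the ranges with a change of sign were, with dox, −0.0099 to 0.088 for *PRPS1*, −0.049 to 0.14 for *ADSL*, −0.0062 to 0.10 for *IMPDH2* and −0.00078 to 0.11 for *GMPS*. Without dox they were −0.23 to 0.13 for *PPAT* and −0.12 to 0.011 for *ATIC*. Between the SCR groups they were −0.23 to 0.015 for *PRPS1*, −0.16 to 0.010 for *PPAT*, −0.027 to 0.049 for *GART*, −0.12 to 0.084 for *ADSL* and −0.11 to 0.038 for *ATIC*. For *IMPDH1* they were −0.46 to 0.036 within NAA40-KD and −0.27 to 0.21 in the interaction. The cause was not tested. With the replicate number as a block, 4 purine genes passed with dox, 0 without dox, 0 between the SCR groups, 0 within NAA40-KD and 1 in the interaction, and the numbers share no stated pairing.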
